A study of Mus musculus with 6 samples.

Results

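A set of 10 genes that mark or maintain blood stem and progenitor cells was followed in the livers of mouse embryos with and without the miR-144/451 locus. They were taken by name (Kit, Myb, Cd34, Meis1, Hoxa9, Flt3, Spi1, Fli1, Erg and Mecom), and are 10 of the 34542 genes in the deposited gene count table. All 10 passed the filter on low counts and are among the 15105 genes tested. Spi1 is listed there under its older symbol Sfpi1. RNA sequencing of polyadenylated RNA covered 3 wild-type libraries (WT, replicates 1 to 3) and 3 libraries of genotype miR-144/451-/- (KO, replicates 4 to 6), all of strain C57BL/6J. RNA came from fetal liver cells that the labels do not describe as sorted. The labels give neither the age of the embryos nor how many embryos stand behind a library, and p-values therefore cover the spread among these libraries, which may be technical. The comparison asks how transcripts differ when both microRNAs are missing.

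Fetal liver is the place where stem cells that seed the later bone marrow multiply, and where most blood made is red cells. KIT and FLT3 are receptor tyrosine kinases through which stem cell factor and FLT3 ligand keep progenitors alive and dividing. MYB, the ETS-domain proteins PU.1 (encoded by Spi1), FLI1 and ERG, the homeodomain proteins HOXA9 and MEIS1, and the zinc finger protein EVI1 (encoded by Mecom) are transcription factors of stem and progenitor cells. Most of them are turned down as cells mature toward the red lineage. Several are not limited to progenitors: Kit is also a mast cell gene, Spi1 a macrophage and granulocyte gene, Fli1 and Mecom are active in megakaryocytes, and Cd34, Fli1, Erg and Mecom in endothelium.

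The 2 microRNAs bind messenger RNAs mainly through bases 2 to 8, the seed. The mature sequences are shown from 5′ to 3′ with the seed in capitals, because 4 of the 10 genes carry a match to it. They are RefSeq sequences (build GRCm38.p6) from the plus strand of chromosome 11, where miR-451a lies at chr11:78073186-78073207, miR-144-3p at chr11:78073047-78073066 and miR-144-5p, from the other arm of the miR-144 hairpin, at chr11:78073010-78073032.
miR-451a: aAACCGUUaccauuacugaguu
miR-144-3p: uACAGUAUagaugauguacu
miR-144-5p: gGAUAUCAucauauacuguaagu

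The searched motifs, read on the strand of the messenger RNA only, were AACGGTT for miR-451a, ATACTGT for miR-144-3p and TGATATC for miR-144-5p, called an 8mer site where an A follows and a 7mer site otherwise. Searching 1 UTR (3′ untranslated region) per gene, the longest in GENCODE M21 (GRCm38), 5 matches lay in Cd34, Meis1, Fli1 and Erg. A short stretch of the UTR around each is given, with the match in capitals, since a seed match in a UTR is where a microRNA can bind.
Fli1, miR-451a 7mer at chr9:32423482-32423503, minus strand: gttactggAACGGTTtatacca
Erg, miR-451a 7mer at chr16:95360697-95360718, minus strand: ggagtggaAACGGTTggccaga
Erg, miR-144-3p 8mer at chr16:95360582-95360604, minus strand: ctcaaaatATACTGTAcatggac
Cd34, miR-144-3p 7mer at chr1:194959917-194959938, plus strand: ttatttctATACTGTccagggt
Meis1, miR-144-3p 7mer at chr11:18881394-18881415, minus strand: atgctattATACTGTtatccat

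A miR-451a match is uncommon: 2.03% of the tested genes with an annotated 3′ UTR hold one (244 of 11991 matched by symbol), and Fli1 and Erg, a pair of closely related ETS genes, are both in that group. A miR-144-3p match is held by 13.2% of these genes and an 8mer by 4.38%. In Erg the 2 matches start at bases 96 and 210 of a UTR of 1637 bases. The match in Meis1 starts at base 4097 of 5687. Kit, Myb, Hoxa9, Flt3, Spi1 and Mecom had no match in the searched UTR to any of the 3 seeds, and none of the 10 matched the miR-144-5p seed. A match is a string of letters and was not shown here to be bound.

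In GRCm38 (GENCODE M21) the genes lie apart from one another. Kit is at chr5:75574916-75656722, Flt3 at chr5:147330741-147400489, Cd34 at chr1:194938819-194961279, Myb at chr10:21124935-21160984 and Hoxa9 at chr6:52223100-52231089. Meis1 is at chr11:18879817-19018985, Mecom at chr3:29951296-30548008, Spi1 at chr2:91082390-91115756, Fli1 at chr9:32422204-32542861 and Erg at chr16:95359169-95586593. Gene counts equal the exon counts for all 15543 genes with both, and the strand setting is not given in the sources used here. Antisense genes overlap the gene bodies of Myb (Gm26577), Cd34 (Gm16897), Flt3 (Gm26597), Meis1 (Gm16140 and Gm16141), Fli1 (Gm27201) and Mecom (Mecomos). Overlap of their exons was not checked, and without strand, reads over shared bases cannot be told apart. No gene is annotated over Kit, Spi1 or Erg.

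Library totals ran from 24659978 to 44700229 counts. The deleted genes checked the labels: Mir144 had from 29 to 51 counts per WT library and from 0 to 1 per KO library, and Mir451 from 323 to 446 and from 2 to 4. Hepatocyte content differed greatly within both groups. The summed level of 20 hepatocyte markers was 16145, 60986 and 9518 CPM in WT replicates 1, 2 and 3 and 13993, 21871 and 49801 CPM in KO replicates 4, 5 and 6, with WT replicate 2 and KO replicate 6 far above the others. CPM are counts relative to the library's total after TMM scaling, in the usual unit of that name. In such bulk samples, fewer cells of a type and less RNA per cell cannot be told apart.

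None of the 10 genes passed the test of KO against WT, in either direction, at an adjusted p under 0.05 (edgeR's quasi-likelihood test, Benjamini-Hochberg adjustment over all tested genes). The background rate of calls in that test was 1.83% higher and 1.45% lower in KO. Log2 changes were below 0 for 8 of the 10 and the median was -0.26, beside a median of -0.03 and 55.2% below 0 over all tested genes. Myb and Flt3, both lower in KO, had an unadjusted p under 0.05 by edgeR, as did 8.78% of all tested genes in that direction and 7.77% in the other. The WT and KO libraries did not overlap for Myb, Flt3 and Fli1, each lower in KO, against 10.9% of all tested genes, and 11.8% were higher without overlap. DESeq2 and limma-voom, as other tests, called 0 of the 10 as well, where their calls made up 3.83% and 1.79% of the genes they tested for higher and 3.53% and 1.45% for lower in KO.

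**Figure D1:**
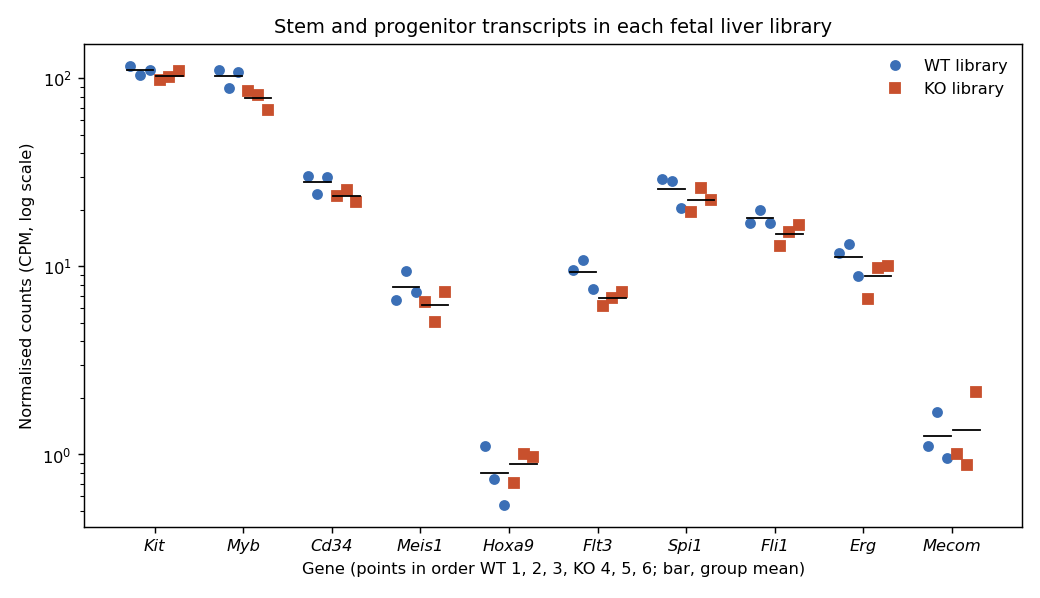
Normalised counts (CPM, log axis) of each gene in the 3 WT libraries (blue circles) and the 3 KO libraries (orange squares), with group means as black bars. Levels span from about 1 CPM for Hoxa9 and Mecom to over 100 CPM for Kit, and WT and KO points separate completely for Myb, Flt3 and Fli1 alone.

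Kit, the receptor for stem cell factor, measured 116, 104 and 111 CPM in WT replicates 1 to 3 and 98.0, 102 and 109.7 CPM in KO replicates 4 to 6. The groups overlapped, with KO replicate 6 inside the WT range. Kit went from 110.6 ± 6.02 to 103 ± 5.95 CPM (SD, n = 3 each), with a log2 change of -0.10 (SE 0.08, adjusted p = 0.641, edgeR). The 95% interval of the KO to WT ratio, 0.820 to 1.06, was the narrowest of the set. The change was -0.059 without WT replicate 1, -0.15 without KO replicate 6, -0.16 without both WT replicate 2 and KO replicate 6, and -0.061 with no filter on low counts.

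Flt3, the receptor of early myeloid and lymphoid progenitors, had the lowest change of the 10. Its level was 9.56, 10.8 and 7.56 CPM in WT and 6.18, 6.82 and 7.31 CPM in KO. The lowest WT library stood just above the highest KO library. The group values were 9.31 ± 1.64 and 6.77 ± 0.571 CPM (SD, n = 3 each), with a log2 change of -0.46 (SE 0.17, adjusted p = 0.254, edgeR) with a 95% interval from -0.88 to -0.04.

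Cd34, a sialomucin on the surface of progenitors and endothelium, measured 30.3, 24.2 and 30.1 CPM in WT and 23.8, 25.4 and 21.9 CPM in KO. WT replicate 2 lay among the KO libraries. Its log2 change was -0.25 (SE 0.12, adjusted p = 0.393, edgeR), with a 95% interval from -0.55 to 0.05. Cd34 has a miR-144-3p match, whose part in its level was not tested.

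Cells other than progenitors may contribute to these receptor transcripts. Mast cells keep Kit, and their markers were pooled here with those of basophils. The 9 mast cell and basophil markers summed to 58.9, 46.8 and 40.8 CPM in WT and to 28.8, 36.0 and 33.9 CPM in KO. These sums did not overlap, although none of the 7 markers tested passed, and 6 of the 7 were below 0. Fcer1a and Mcpt4 were too low to test. The 6 tested lymphoid markers were all below 0 (median log2 change -0.66, none called), with sums of 33.7 to 87.3 CPM in WT and 19.6 to 47.6 in KO, lowest in KO replicate 4, where Flt3 was lowest too. The part of these cells in the values of Kit and Flt3 was not tested.

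Myb, whose protein keeps erythroid and myeloid progenitors dividing, had the lowest p of the 10. It measured 111, 88.9 and 107 CPM in WT and 85.6, 81.9 and 67.7 CPM in KO. Every KO library was below every WT library, the closest being WT replicate 2 and KO replicate 4. The group values were 102 ± 11.8 and 78.4 ± 9.46 CPM (SD, n = 3 each), and the log2 change was -0.39 (SE 0.13, adjusted p = 0.190, edgeR). That is a KO to WT ratio of 0.766, with a 95% interval from 0.621 to 0.944 before any adjustment for the number of genes.

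Whether Myb passed depended on WT replicate 2 and on the use of a hepatocyte covariate. Its adjusted p was 0.0486 without WT replicate 2 and 0.0250 without both WT replicate 2 and KO replicate 6 (edgeR), and the log2 changes were -0.48 and -0.36. In a fit that took the hepatocyte markers as covariate it was 0.00772 (edgeR). In that last fit Flt3 (log2 change -0.49, adjusted p = 0.0151, edgeR) and Fli1 (-0.31, adjusted p = 0.0441, edgeR) passed as well, so that 3 of the 10 were lower. The background moved in the same direction: calls lower in KO rose from 1.45% of all genes to 6.61%, 5.56% and 8.61% in these 3 fits. Leaving out any other single library gave an adjusted p for Myb from 0.177 to 0.523 (edgeR). Among these, leaving out KO replicate 6, also rich in hepatocytes, gave a log2 change of -0.30 (adjusted p = 0.214, edgeR).

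Erythroblast markers, like Myb, were lower in KO. The 12 red cell markers summed to 33646, 24312 and 29690 CPM in WT and to 19279, 21816 and 18529 CPM in KO, again without overlap. Of the 12, Tfrc (log2 change -0.83, adjusted p = 0.0336, edgeR) and the membrane skeleton gene Epb42 (-0.72, adjusted p = 0.0481, edgeR) fell. Calls lower in KO made up 1.45% of all tested genes. Lower in KO without overlap were 8 of the 12, against 10.9% of all tested genes. All 12 were below 0, with a median of -0.55. Their part in the Myb values was not tested.

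Hoxa9 and its DNA-binding partner Meis1 form a self-renewal pair in progenitors and leukaemia. Hoxa9 was close to the detection limit, where the WT libraries held 37, 26 and 13 counts and the KO libraries 33, 42 and 40, which are 1.11, 0.742 and 0.540 CPM and 0.703, 1.002 and 0.969 CPM. The groups overlapped, and the 95% interval of the log2 change, from -0.63 to 0.93 around 0.15 (SE 0.32), took in changes in both directions. Meis1 measured 6.59, 9.47 and 7.31 CPM in WT and 6.50, 5.03 and 7.29 CPM in KO. WT replicate 2 was the highest and KO replicate 5 the lowest, and the others lay within 1 CPM of each other. The log2 change of Meis1 was -0.31 (SE 0.21, adjusted p = 0.569, edgeR), with a 95% interval from -0.82 to 0.20. It was -0.15 without WT replicate 2 and -0.20 without KO replicate 5. Meis1 has a miR-144-3p match, whose part in its level was not tested.

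Mecom, which encodes the transcription factor EVI1, was as scarce as Hoxa9. It measured 1.11, 1.68 and 0.955 CPM in WT and 1.001, 0.883 and 2.16 CPM in KO. Its 2 highest libraries were WT replicate 2 and KO replicate 6. Those were also the libraries with the highest hepatocyte, macrophage and endothelial sums. The 12 endothelial markers summed to 125, 311 and 119 CPM in WT and 152, 153 and 320 CPM in KO. All 12 were above 0 (median log2 change 0.17) and none passed. Cd34, Fli1 and Erg, which endothelium also expresses, had changes below 0, and the part of endothelium in their values was not tested. The log2 change of Mecom, 0.10 (SE 0.42), had a 95% interval from -0.91 to 1.11. It became -0.11 without WT replicate 2 and KO replicate 6. Whether the Mecom transcripts came from endothelial cells was not tested.

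Among the ETS factors, Spi1 encodes PU.1, which directs progenitors to the myeloid lineages and opposes GATA1. It measured 29.0, 28.5 and 20.4 CPM in WT and 19.4, 26.0 and 22.5 CPM in KO. WT replicate 3 fell among the KO libraries. The log2 change was -0.20 (SE 0.18, adjusted p = 0.706, edgeR). Leaving out WT replicate 1, 2 or 3 gave -0.11, -0.13 or -0.35, leaving out KO replicate 4 or 5 gave -0.11 or -0.33, and it was -0.099 without both hepatocyte-rich libraries. Granulocyte markers, 10 genes of a lineage that uses PU.1, summed to 4254, 3422 and 2454 CPM in WT and 1567, 3262 and 2172 CPM in KO, with WT replicate 3 lowest in WT and KO replicate 4 lowest in KO, as for Spi1. All 10 were below 0 and none passed. The part of granulocytes in the Spi1 values was not tested, and neither was that of macrophages, whose 12 markers summed to 326 to 750 CPM in WT and 379 to 516 in KO.

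Fli1, which drives megakaryocyte and endothelial genes, measured 17.1, 19.96 and 17.0 CPM in WT and 12.9, 15.2 and 16.6 CPM in KO. The groups separated by less than 1 CPM. The values were 18.0 ± 1.68 and 14.9 ± 1.87 CPM (SD, n = 3 each), and the log2 change was -0.27 (SE 0.14, adjusted p = 0.399, edgeR), with a 95% interval from -0.61 to 0.06. The 11 megakaryocyte markers summed to 236, 325 and 460 CPM in WT and 403, 245 and 353 CPM in KO, where KO replicate 4 came next after WT replicate 3 while its Fli1 was the lowest of all. Of the 11, 8 were below 0 and none passed. The part of megakaryocytes and endothelium in the Fli1 values was not tested.

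Erg, the relative of Fli1 with matches to both microRNAs, measured 11.8, 13.1 and 8.89 CPM in WT and 6.73, 9.76 and 10.1 CPM in KO. WT replicate 3 lay inside the KO range, and KO replicate 4 was the lowest library, as it was for Fli1, Flt3 and Spi1. The group values were 11.3 ± 2.17 and 8.85 ± 1.85 CPM (SD, n = 3 each), with a log2 change of -0.35 (SE 0.22, adjusted p = 0.535, edgeR). Its 95% interval of the KO to WT ratio ran from 0.543 to 1.14. The change was -0.20 without KO replicate 4, -0.22 without WT replicate 2 and -0.49 without WT replicate 3. The 2 genes with a miR-451a match and the 3 with a miR-144-3p match were not higher in KO by this test. Neither was any other of the 10, and an effect of the matches was not tested.

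**Figure D2:**
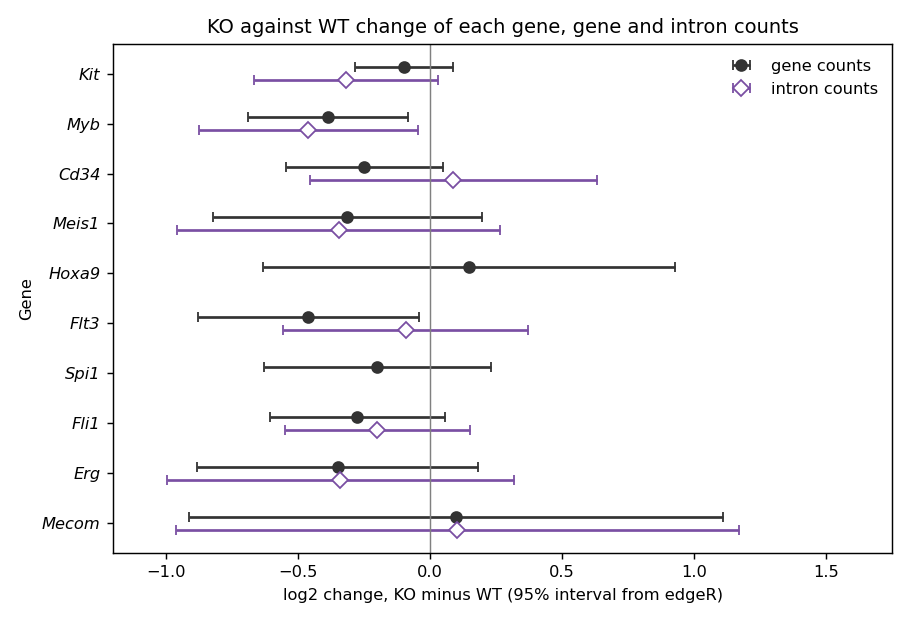
Log2 change of each gene, KO minus WT, with the 95% interval of edgeR's quasi-likelihood fit, for gene counts (filled circles) and intron counts (open diamonds). Intervals leave out 0 for Myb in both measures and for Flt3 in gene counts, before adjustment for the number of genes tested, and they are widest for Hoxa9 and Mecom.

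Levels were compared between genes per kilobase of merged coding-transcript exons (GENCODE M21), as CPM per kb in WT. Myb was the highest at 27.1 ± 3.13, then Kit at 21.1 ± 1.15, Spi1 at 11.8 ± 2.20, Cd34 at 10.8 ± 1.33, Fli1 at 5.17 ± 0.483 and Erg at 3.25 ± 0.627 (SD, n = 3 each). Flt3 followed at 2.55 ± 0.448, Meis1 at 1.03 ± 0.198, Hoxa9 at 0.247 ± 0.0893 and Mecom at 0.180 ± 0.0553. The WT ranges of Spi1 and Cd34, of Erg and Flt3, and of Hoxa9 and Mecom overlapped, and those of all other neighbours in this order did not. In KO Myb measured 20.8 ± 2.51 and Kit 19.7 ± 1.13 CPM per kb (SD, n = 3 each), and their ranges overlapped. Myb was above Kit in KO replicates 4 and 5 (22.7 against 18.7 and 21.7 against 19.4), and KO replicate 6 had the reverse order, at 17.9 and 20.9.

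**Figure D3:**
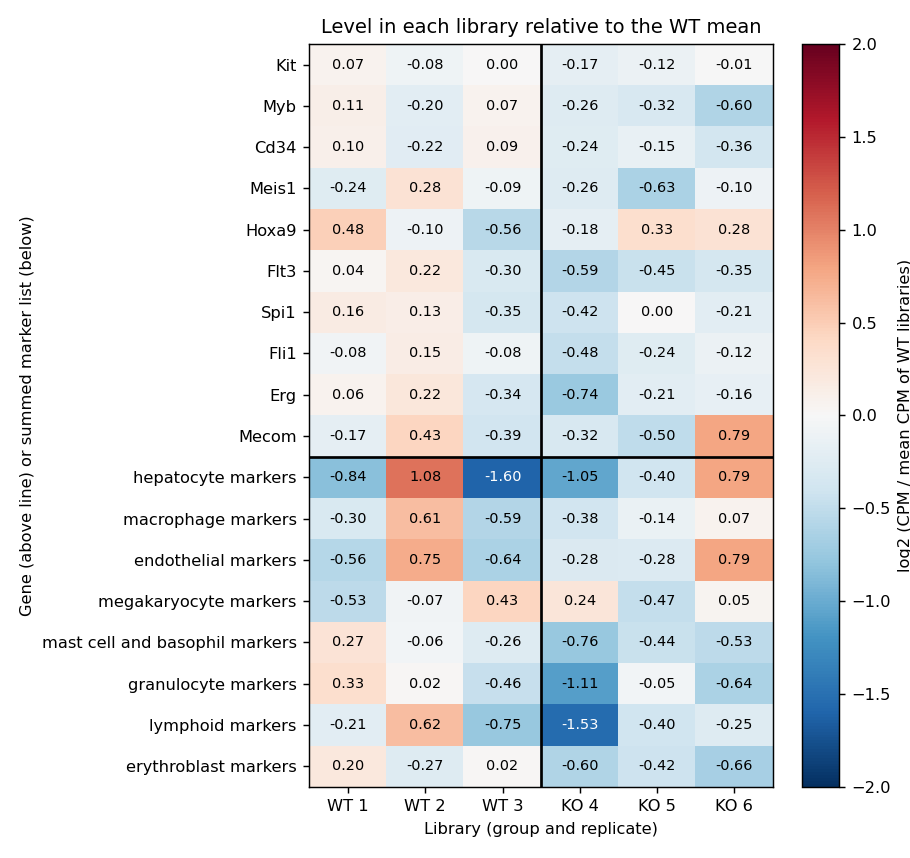
Level of each gene (above the line) and of each summed marker list (below) in the 6 libraries, as log2 of CPM over the mean CPM of the WT libraries, with red for higher and blue for lower. Myb, Flt3 and Fli1 are below the lowest WT library in all 3 KO libraries. So are the erythroblast sum and the mast cell and basophil sum. Hepatocyte, macrophage and endothelial sums are highest in WT replicate 2 and KO replicate 6.

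Intron counts, which can come from unspliced RNA and from other transcripts in the interval, were given for 9 of the 10 genes, all but Spi1. Hoxa9, with 4 to 12 intron counts per library, was too low, which left 8 tested. None passed in either direction at an adjusted p under 0.05 by edgeR, where the background was 0.237% higher and 0.483% lower in KO. At an unadjusted p under 0.05 Myb alone was lower and 0 were higher, against 5.45% and 5.39% of all tested genes. Myb introns measured 143, 105 and 138 CPM (of all intron counts) in WT and 104, 75.3 and 100.6 CPM in KO. The groups again did not overlap, by less than 1 CPM between WT replicate 2 and KO replicate 4. The log2 change was -0.46 (SE 0.18, adjusted p = 0.406, edgeR), beside -0.39 in gene counts.

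Kit introns measured 46.7, 48.0 and 43.0 CPM in WT and 39.0, 32.3 and 39.0 CPM in KO, without overlap, for a log2 change of -0.32 (SE 0.15, adjusted p = 0.511, edgeR). Fli1 introns did not overlap either, at 34.6, 33.2 and 34.7 CPM in WT and 27.7, 32.5 and 29.1 CPM in KO, for a log2 change of -0.20 (SE 0.15, adjusted p = 0.748, edgeR). These 3 of 8 genes compare with 7.57% of all tested genes whose intron levels were lower in KO without overlap and 9.92% higher. Introns of Flt3 overlapped between groups, at 15.7, 18.4 and 15.03 CPM in WT and 14.2, 14.9 and 17.0 CPM in KO, and so did those of Cd34, Meis1, Erg and Mecom.

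The exonic change minus the intronic change compares the exon and intron counts of the same libraries. It passed for none of the 8 genes in either direction by edgeR's interaction test, as for 0.0% of the 11100 genes tested in each direction. At an unadjusted p under 0.05 it was also 0 of the 8, against 1.67% of these genes with a higher and 1.5% with a lower value. The lowest values were -0.36 for Flt3 (SE 0.25, 95% interval -0.95 to 0.24) and -0.34 for Cd34 (SE 0.22, -0.85 to 0.16), and the highest was 0.22 for Kit (SE 0.16, -0.15 to 0.60). Of the 4 genes with a seed match, Erg had 0.00050 (SE 0.47), Meis1 0.03 (SE 0.35) and Fli1 -0.08 (SE 0.21). The interval of Fli1 reached from -0.56 to 0.41 and that of Erg from -1.09 to 1.09. Differences between the exonic and intronic change of the sizes within these intervals are not shown to be absent.

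In 7 lists of related genes 3 genes passed the test, and list medians ran from -0.23 to -0.03, beside -0.03 over all tested genes. Among 15 related receptors and ligands, 0 passed in either direction and the median log2 change was -0.08. Of the growth factors of KIT and FLT3, Kitl, stem cell factor, measured 16.0 ± 10.7 CPM in WT and 16.5 ± 6.09 in KO, while Flt3l measured 4.56 ± 1.23 and 3.72 ± 0.767 (SD, n = 3 each), a pair chosen with its values in view. The most abundant of this list were Csf1r, the macrophage growth factor receptor (log2 change -0.23), and the insulin-like growth factor receptor Igf1r (0.36, adjusted p = 0.292, edgeR). Of 14 tested surface proteins of stem and progenitor cells 0 passed (median -0.23). They include the integrin Itga4 (-0.27) and Podxl, podocalyxin, which belongs to the CD34 family. Podxl measured 64.5, 44.3 and 97.3 CPM in WT and 167, 120.2 and 94.6 CPM in KO, which overlap, for a log2 change of 0.89 (SE 0.32, adjusted p = 0.239, edgeR).

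Of 20 genes that carry the signal of KIT and FLT3, Pik3r1 fell, 0 rose and 19 did not pass (median -0.08). Pik3r1 encodes the regulatory subunit of phosphoinositide 3-kinase, which docks on activated KIT. It measured 221, 205 and 219 CPM in WT and 144, 145 and 143 CPM in KO, a wide gap beside the spread within either group. Its log2 change was -0.58 (SE 0.07, adjusted p = 0.0160, edgeR). It kept the same direction and a size from -0.61 to -0.54 under all 13 alternatives, but its adjusted p was above 0.05 when WT replicate 1 (0.0932) or 3 (0.0951), or KO replicate 4 (0.0620) or 5 (0.0673), was left out (edgeR).

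Among 19 tested transcription factors of stem and progenitor cells, 0 passed and the median was -0.16. The most abundant were Tal1, at 866 ± 109 CPM in WT and 664 ± 40.5 in KO (SD, n = 3 each; log2 change -0.38, adjusted p = 0.200, edgeR), and its partner Lmo2 (-0.29). Most HOX genes near Hoxa9 were barely detected: 9 of 20 HOX and TALE genes were too low to test, Hoxa11 and Hoxa13 had 0 counts in all libraries, and 0 of 11 tested passed. The most abundant of these were the PBX cofactor Pbx2 (67.9 ± 0.745 to 78.1 ± 0.702 CPM, SD, n = 3 each; log2 change 0.20, adjusted p = 0.144, edgeR) and Pknox1 (-0.08).

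Of 14 other ETS genes tested, Elf1 rose and 0 fell (median -0.03). ELF1 is an ETS activator of blood and endothelial genes. Its transcript measured 109, 86.9 and 99.7 CPM in WT and 142, 161 and 151 CPM in KO, clearly apart, for a log2 change of 0.62 (SE 0.10, adjusted p = 0.0317, edgeR). Leaving out 1 library moved the adjusted p to 0.0976 for WT replicate 1 and 0.148 for WT replicate 3, and to 0.0635, 0.0850 and 0.0632 for KO replicates 4, 5 and 6 (edgeR). Elf1 has no match to any of the 3 seeds in the searched UTR. Its gene body overlaps Wbp4 on the opposite strand, and overlap of their exons was not checked. Without strand, reads over shared bases cannot be told apart.

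Of 8 relatives and cofactors of MYB, Mybl1 fell, 0 rose and 7 did not pass (median -0.17). Mybl1 encodes the MYB relative A-MYB, best known from the testis. It was scarce, at 4.73, 4.51 and 5.02 CPM in WT and 2.34, 1.98 and 2.59 CPM in KO, with every KO library far below WT, for a log2 change of -1.04 (SE 0.17, adjusted p = 0.0327, edgeR). The adjusted p was 0.0507 with no filter on low counts (edgeR). Leaving out WT replicate 1 or 3 moved it to 0.144 or 0.143, and leaving out KO replicate 4, 5 or 6 moved it to 0.1099, 0.120 or 0.0765 (edgeR). These 3 calls in 101 tested genes of the 7 lists compare with the background of 1.83% higher and 1.45% lower.

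**Figure D4:**
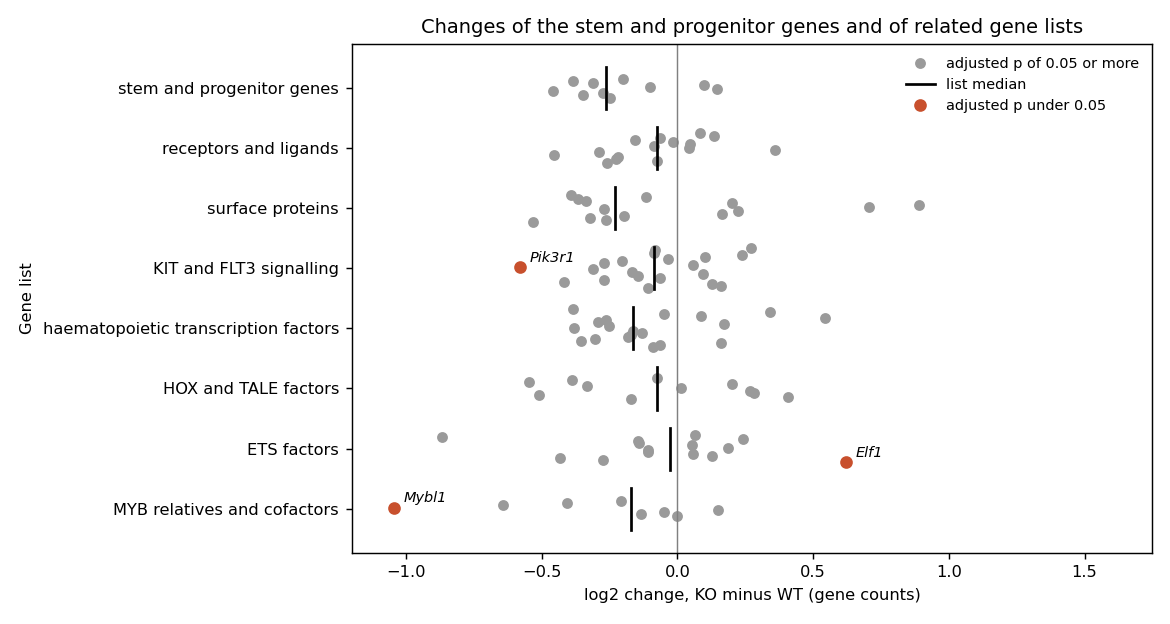
Log2 change, KO minus WT, of every tested gene of the 10 stem and progenitor genes and of the 7 related lists, with the list median as a black bar and genes past an adjusted p of 0.05 (edgeR) in orange with their name. Pik3r1, Elf1 and Mybl1 are past the threshold, and none of the 10 stem and progenitor genes is.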

How the data were processed

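Polyadenylated RNA of 6 fetal liver libraries, 3 WT and 3 KO, was sequenced, and groups and replicate numbers were read from the sample titles. Raw counts were deposited by symbol, in a table of 34542 genes and another of 15543 genes with exon and intron columns. The exon counts equal the gene counts for all 15543. STAR and HTSeq and the builds NCBIM37 and mm10 are named in the submitters' processing notes, without versions, and the strand setting is not given in the sources used here. The gene table is labelled as free of globin and mitochondrial genes, and 0 such symbols were present, so CPM are relative to totals without globin.

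KO was tested against WT over all genes with edgeR 4.0.16 (R 4.3.3): TMM scaling, filterByExpr (minimum count 10, total 15), the quasi-likelihood F test and Benjamini-Hochberg adjustment at 0.05. Tests are two-sided. Standard errors come from the F statistic, and 95% intervals from its degrees of freedom, unadjusted for the number of genes. The interaction of region and genotype was fitted over 12 columns with a term per sample, exon and intron columns scaled separately. DESeq2 1.42.0, limma-voom (limma 3.58.1), RLE scaling, no filter, the exon columns, a hepatocyte covariate and left-out libraries were alternatives. The fits were tested on simulated data, where they did not recover every change that had been put in. Pairs of libraries of 1 group differed by 17.8 to 168 in chi-square per degree of freedom over genes, so none was a duplicate. Precision is that of the spread between libraries, and reads carry no molecular identifiers.

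Seed matches were searched in the longest 3′ UTR per coding gene (GENCODE M21), and the tables' symbols were matched directly, or by an older symbol where needed, as for Spi1 and Kmt2a. Per list, called genes were named, or the 2 most abundant where none was called. The 10 genes, the lists and the tests were chosen with earlier results of these data known. The shares called are given beside each count in place of tests over lists.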

Additional observations from a re-analysis of the deposited data

How the results depend on the processing

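No paired analysis was possible because WT replicates are numbered 1 to 3 and KO replicates 4 to 6, so no number is shared. The count of the 10 genes called higher in KO was 0 under all 13 alternatives. The count called lower was 0 in the reported fit, 3 with the hepatocyte level as covariate, 1 without both WT replicate 2 and KO replicate 6, and 0 to 1 with 1 library left out. Among all tested genes, 276 were higher and 219 lower. These counts were 543 and 501 by DESeq2, 1290 and 1300 with the hepatocyte covariate, 580 and 838 without both libraries, 137 lower in the exon columns (fewer genes tested), and 5 to 483 higher and 7 to 1012 lower with 1 library left out, highest without WT replicate 2 and lowest without KO replicate 5. The cause was not tested. Intron and exonic minus intronic calls among the 10 genes were 0 throughout. Of the 5 seed matches 1 is an 8mer.

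Log2 changes in gene counts kept their sign for Kit, Myb, Cd34, Meis1, Flt3, Spi1, Fli1 and Erg under every alternative run. Hoxa9 ran from -0.054 to 0.46 with 1 library left out and Mecom from -0.43 to 0.38, and Mecom was -0.0071 by limma-voom and -0.11 without both libraries. In introns, Cd34 ran from -0.040 to 0.19 and Mecom from -0.22 to 0.36 with 1 library left out. Without both libraries, an alternative chosen after seeing the data, they were -0.062 and -0.57. The exonic minus intronic change ran from -0.089 to 0.22 for Myb, -0.24 to 0.31 for Meis1, -0.19 to 0.039 for Fli1, -0.32 to 0.20 for Erg and -0.46 to 0.53 for Mecom with 1 library left out, and Erg had -0.011 without the sample term. Spi1 is not in the exon columns. Hoxa9 and Mecom rest on 13 to 89 counts per library, and how far depth limits them was not tested.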

Other observations

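The share of intronic counts (introns over exons plus introns) differed widely among the 9 genes with both counts. In WT it was 7.08% ± 1.33 for Cd34, 8.63% ± 1.41 for Kit, 22.2% ± 4.50 for Myb, 30.3% ± 6.50 for Fli1 and 45.7% ± 16.0 for Erg (SD, n = 3 each). For 7 of the 9 it was highest in WT replicate 3, where Erg reached 64.2% against 36.1% and 36.8% in the other WT libraries. That library also had the highest intronic share over all genes, 23.4% against 16.9% to 21.3% in the others.

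Some genes of the related lists did not pass the test but had no overlap between groups. Of all tested genes, 10.9% were lower and 11.8% higher in KO without overlap. Those named here were chosen from among more such genes after their values were seen. Mybl2, the cell cycle relative of Myb, measured 206 ± 34.3 CPM in WT and 132 ± 19.8 in KO (SD, n = 3 each), with a log2 change of -0.64 (adjusted p = 0.104, edgeR). Mllt3, a chromatin reader of stem cells, measured 186 ± 29.2 and 272 ± 17.4 CPM (SD, n = 3 each), for a log2 change of 0.54 (adjusted p = 0.0901, edgeR). Of 113 related genes with a searched 3′ UTR, the 1 with a miR-451a match was Ikzf2, at 5.17 ± 1.11 CPM in WT and 3.96 ± 0.145 in KO (SD, n = 3 each; log2 change -0.38, adjusted p = 0.402, edgeR).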
